A study of Homo sapiens with 15 samples.

Results

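Galectins and annexins are represented here by 10 genes of 18485 counted in SNB19 cells: the galectins LGALS1, LGALS3 and LGALS8, the galectin-3-binding glycoprotein LGALS3BP, and the annexins ANXA1, ANXA2, ANXA4, ANXA5, ANXA6 and ANXA7. They were chosen by symbol, with earlier results of these libraries known in which LGALS1 and ANXA2 were lower in FL than in EV and LGALS1 was higher in FL-mut than in FL. Every comparison that contains FL libraries is therefore given for these genes as a description, without a p-value. All 10 passed the filter on low counts, as did 6767 genes in all.

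SNB19 is a human glioblastoma line. The cells were grown in medium with serum and transduced with lentiviral particles for 5 groups of 3 libraries each: the repressor ZBTB18 at full length (FL), the same protein with a mutation (FL-mut), its short form named SF-Nte, the mutated short form (SF-mut), and the empty vector pCHMWS (EV) as control. Neither the mutated residues nor the source of the replicates (separate cultures or one) is given in the labels. A p-value here therefore reflects the spread among libraries, which may be technical. Polyadenylated RNA was read as PCR-amplified cDNA on a Nanopore sequencer, and levels below are CPM: counts scaled by TMM to a common total over the tested genes.

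Galectins are lectins that bind beta-galactoside sugars on glycoproteins, outside the cell and, when a vesicle membrane is torn, inside it. Annexins bind acidic phospholipids of membranes in a calcium-dependent way and take part in membrane repair, vesicle traffic and the anchoring of the actin skeleton. Several annexins work with small calcium-binding S100 proteins, of which S100A10 with annexin A2 is the best known pair. In glioblastoma, galectin-1 and annexin A2 are known chiefly for their part in invasion and angiogenesis.

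Libraries held 803316 to 1393060 counts in FL, 865997 to 1313573 in FL-mut, 432611 to 603155 in SF-Nte, 315693 to 597414 in SF-mut, and 1274474 to 1930245 in EV. ZBTB18 was at 623 to 3067 CPM in FL, 907 to 6858 in FL-mut, 199 to 470 in SF-Nte, 853 to 3631 in SF-mut and 4.37 to 7.12 in EV, above every EV library in all 12 libraries of the constructs. Counts per gene cannot tell the full length from the short form or the mutant from the unmutated sequence, so those parts of the labels were not checked. Of 10 markers of a glioblastoma or astroglial line, 9 were among the genes counted and summed to 241 to 694 CPM in FL, 582 to 898 in FL-mut, 1012 to 1193 in SF-Nte, 1044 to 1227 in SF-mut and 507 to 1065 in EV. VIM (143 to 844 CPM over the 15 libraries) and CD44 (48.5 to 579) were read in every library, while GFAP, the classical astrocyte marker, reached 7.53 CPM at most and S100B 4.16. The range of the marker sum thus differed between groups, with overlaps such as that of FL and EV, and its lowest value was in FL. Not every marker followed the sum. FABP7 averaged 177 CPM in FL (43.5 to 366), 16.4 in FL-mut, 150 in SF-Nte, 104 in SF-mut and 70.5 in EV. The part of the markers in the results below was not tested. Summed markers of other cell types reached 30.8 CPM (immune), 151 CPM (epithelial, of which KRT8 up to 111) and 21.4 CPM (endothelial), with CDH1 at 1 count and PECAM1 at 7 counts in all libraries together. In the deposited sample sheets, SF-mut is listed on a sheet with SF-Nte and apart from FL, FL-mut and EV, and its barcode names carry a suffix. Whether its libraries were made apart is not given in the sources used here. Fewer cells of one state and less RNA per cell cannot be told apart in bulk libraries such as these.

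LGALS1 encodes galectin-1, a secreted and cytosolic lectin that works as a dimer (chromosome 22, 37675608 to 37679806, plus strand, GRCh38). It had 202, 83.3 and 138 CPM in the FL libraries, 617, 1969 and 1010.1 CPM in FL-mut, 1922, 1983 and 1845 CPM in SF-Nte, 2085, 4546 and 2344 in SF-mut, and 2375, 1299.7 and 2259 in EV. The 3 FL libraries lay below all 12 others, and each of the FL-mut libraries lay between the FL libraries and the highest EV library. The mean was 141 ± 59.3 CPM in FL, 1199 ± 696 in FL-mut, 1917 ± 69.3 in SF-Nte, 2992 ± 1353 in SF-mut and 1978 ± 590.2 in EV (SD, n = 3 each). Ordered by mean, SF-mut, EV, SF-Nte and FL-mut followed each other with overlapping libraries, and the next step down, FL-mut over FL, was 8.49-fold with none. The log2 fold change was -3.80 ± 0.46 (SE, edgeR) for FL against EV, or 13.9-fold lower, and 3.08 ± 0.45 for FL-mut against FL. For SF-Nte against FL it was 3.76 ± 0.46. Leaving out 1 library at a time, the log2 fold change ranged between -4.19 and -3.54 for FL against EV, and FL-mut against FL was no longer called without FL replicate 2 (2.80) or FL replicate 3 (3.02). These fits reuse the libraries known when LGALS1 was chosen, so they are a description. The LGALS1 levels of FL rested on 67 to 291 counts per library, so counting error was small beside the spread between libraries.

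In the comparisons without FL libraries no difference in LGALS1 passed the test. FL-mut against EV gave a log2 fold change of -0.72 ± 0.41 (edgeR adjusted p = 0.566, 95% interval -1.60 to 0.16). SF-Nte against EV gave -0.05 ± 0.41 (adjusted p = 0.992), with an interval from -0.92 to 0.83 that leaves out a change of the size seen between FL and EV. SF-mut against EV gave 0.60 ± 0.41 (adjusted p = 0.991), and SF-mut against FL-mut gave 1.32 ± 0.42 (adjusted p = 0.279), where each SF-mut library was above each FL-mut library. SF-mut and SF-Nte did not overlap either, at 2085 to 4546 CPM in SF-mut and 1845 to 1983 in SF-Nte, but the log2 difference of 0.64 ± 0.41 missed the threshold (adjusted p = 0.704). Replicate 2 was the highest LGALS1 library of both SF-mut and FL-mut. Without SF-mut replicate 2, SF-mut gave 0.14 against EV, 0.19 against SF-Nte and 0.87 against FL-mut. Without FL-mut replicate 2, FL-mut against EV gave -1.30 and SF-mut against FL-mut 1.86.

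LGALS3 encodes galectin-3, the chimeric galectin with a long tail that lets it form lattices on the cell surface. It was read at low levels, 32.9 to 57.2 CPM in FL, 24.2 to 55.5 in FL-mut, 15.4 to 39.8 in SF-Nte, 19.6 to 55.5 in SF-mut and 5.34 to 30.6 in EV. Its lowest value, in EV replicate 3, rested on 6 counts. The FL libraries lay just above the EV libraries without overlap, with a log2 fold change of 1.12 ± 0.61, the same size as that of FL-mut against EV (1.11 ± 0.61, edgeR adjusted p = 0.556), where the libraries overlapped. FL-mut and FL had nearly the same mean, 43.0 ± 16.6 CPM in FL-mut and 43.2 ± 12.6 in FL (SD, n = 3 each).

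LGALS8 encodes galectin-8, a tandem-repeat galectin that marks torn endosomes for autophagy. Its level was 90.2, 153 and 120.0 CPM in FL, 98.0, 53.2 and 90.0 CPM in FL-mut, 67.4, 47.0 and 54.8 CPM in SF-Nte, 68.6, 18.5 and 61.5 in SF-mut, and 53.0, 44.4 and 25.8 in EV. It ran opposite to LGALS1, with every FL library above every EV library and FL-mut also above EV, by the margin between 53.19 and 53.01 CPM. LGALS8 had a log2 fold change of 1.55 ± 0.46 for FL against EV, -1.10 ± 0.46 for SF-Nte against FL and 0.96 ± 0.45 for FL-mut against EV (edgeR adjusted p = 0.476). Exons of LGALS8 overlap those of HEATR1 on the opposite strand over 2095 bases, and whether counting used strand is not given in the sources used here, so reads of both genes may be mixed in this count.

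LGALS3BP encodes a large secreted glycoprotein that binds galectin-3 and is known as an interferon-responsive gene. It had 52.7, 23.6 and 55.2 CPM in FL, 18.2, 386 and 53.8 CPM in FL-mut, 73.2, 75.3 and 67.2 CPM in SF-Nte, 57.2, 487 and 96.4 in SF-mut, and 42.5, 108 and 127 in EV. Replicate 2 of FL-mut and replicate 2 of SF-mut stood far above every other library. The values below depended on these libraries. FL-mut against EV gave a log2 fold change of 0.72 ± 0.88 (edgeR adjusted p = 0.823) but -1.36 without FL-mut replicate 2, and SF-mut against EV gave 1.19 ± 0.89 (adjusted p = 0.997) but -0.29 without SF-mut replicate 2. FL-mut against FL gave 1.78 ± 0.91 but -0.28 without FL-mut replicate 2, and SF-mut against SF-Nte gave 1.55 ± 0.91 (adjusted p = 0.674) but 0.07 without SF-mut replicate 2. SF-mut against FL-mut gave 0.47 ± 0.88 (adjusted p = 0.932), with 2.51 without FL-mut replicate 2 and -1.02 without SF-mut replicate 2.

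**Figure D1:**
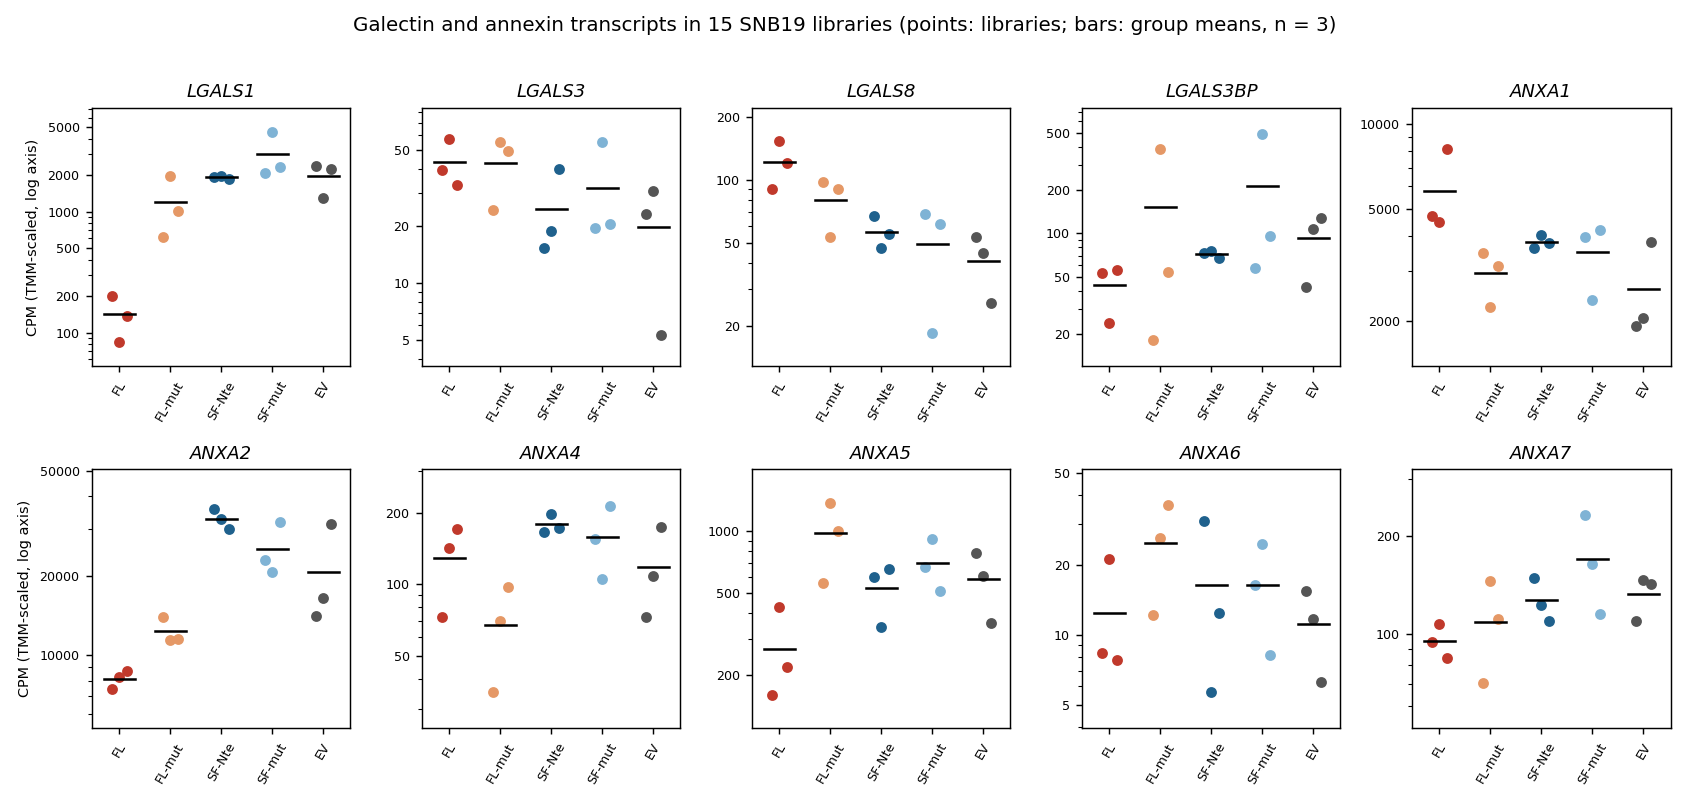
Level of each of the 10 genes by library, in TMM-scaled CPM on a log axis with a scale of its own per gene; points are the 3 libraries of each group, replicates 1 to 3 from left to right, and black bars are group means. LGALS1 and ANXA2 are lowest in FL, LGALS8 and ANXA1 are highest in FL, and LGALS3BP is at 386 and 487 CPM in 1 library each of FL-mut and SF-mut.

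ANXA2 encodes annexin A2, which with S100A10 forms a complex at the plasma membrane that binds plasminogen activators (chromosome 15, 60347134 to 60402883, minus strand). It had 7441, 8235 and 8709 CPM in FL, 13942.5, 11425 and 11534 CPM in FL-mut, 35934, 32897 and 29979 CPM in SF-Nte, 22842, 20589.6 and 32074 in SF-mut, and 14039, 16531 and 31278 in EV. FL lay below all 12 other libraries, FL-mut lay between FL and EV with no overlap with either, and the short forms overlapped the EV range. The mean was 8128 ± 641 CPM in FL, 12301 ± 1423 in FL-mut, 32937 ± 2977 in SF-Nte, 25169 ± 6085 in SF-mut and 20616 ± 9317 in EV (SD, n = 3 each). In the order of means, the steps from SF-Nte to SF-mut and from SF-mut to EV overlapped, whereas EV over FL-mut (1.68-fold) and FL-mut over FL (1.51-fold) did not. ANXA2 had a log2 fold change of -1.34 ± 0.26 for FL against EV, 0.60 ± 0.26 for FL-mut against FL and 2.02 ± 0.27 for SF-Nte against FL. The EV level rests on replicate 3, which was about as high as SF-Nte: FL against EV was -0.94 without it, and the gene was no longer called in 5 of 6 fits that each left out a library, all but the one without EV replicate 1 (-1.56).

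In comparisons without FL libraries ANXA2 did not pass the test. SF-mut against FL-mut gave a log2 fold change of 1.03 ± 0.26 (edgeR adjusted p = 0.177, 95% interval 0.48 to 1.59), with all 3 SF-mut libraries above all 3 FL-mut libraries. FL-mut against EV gave -0.75 ± 0.26 (adjusted p = 0.326, interval -1.30 to -0.19), or -0.37 without EV replicate 3. SF-Nte against EV gave 0.68 ± 0.26 (adjusted p = 0.605) and SF-mut against EV 0.29 ± 0.26 (adjusted p = 0.997), and both overlapped EV only through EV replicate 3. Without that library SF-Nte against EV was 1.08 and SF-mut against EV 0.64, and SF-mut against EV was -0.02 without SF-mut replicate 3. SF-mut against SF-Nte gave -0.39 ± 0.26 (adjusted p = 0.708, interval -0.94 to 0.17).

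ANXA2 has processed pseudogenes whose reads could be exchanged with its own. The transcript of ANXA2P2 is 98.4% identical to ANXA2-202 over 1020 bases, and ANXA2P1 and ANXA2P3 are 93.6% and 91.4% identical over 926 and 1008 bases. ANXA2P2 was counted at 12.6 CPM in FL, 18.4 in FL-mut, 35.5 in SF-Nte, 33.3 in SF-mut and 23.8 in EV (means, n = 3), which is the group order of ANXA2 itself. The ANXA2P2 count may hold reads of ANXA2. Pseudogene reads that were counted as ANXA2, or left out, would not show in the ANXA2P2 count. How far reads were exchanged was not tested.

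Promoter windows, 250 bases before a transcription start, were taken from RefSeq (GRCh38.p14) for the 9 members it holds, 13 windows in all; LGALS1 was not among them. The stretches of the ANXA2, ANXA1 and ANXA5 windows that lie outside annotated exons are shown because these annexins had the largest differences between FL and either EV or FL-mut. Capitals mark the motifs found in a stretch, each searched on both strands. CAGATG is the core of the element that ZBTB18 is known to bind, and its reverse complement reads CATCTG. Every match to it is also an E-box, CANNTG. The AP-1 motif is TGACTCA, which as read from the opposite strand is TGAGTCA. The last one searched for and marked here is the GC box, GGGCGG.
ANXA2, chr15:60398044-60398236, minus strand: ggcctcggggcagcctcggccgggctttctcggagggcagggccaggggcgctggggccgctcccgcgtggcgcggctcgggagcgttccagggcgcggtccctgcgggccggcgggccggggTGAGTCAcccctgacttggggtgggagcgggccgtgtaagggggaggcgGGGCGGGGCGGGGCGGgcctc
ANXA1, chr9:73151615-73151756, plus strand: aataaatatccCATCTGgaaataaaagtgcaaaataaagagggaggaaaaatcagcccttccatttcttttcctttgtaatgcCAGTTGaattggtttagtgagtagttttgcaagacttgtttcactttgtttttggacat
ANXA5, chr4:121697114-121697230, minus strand: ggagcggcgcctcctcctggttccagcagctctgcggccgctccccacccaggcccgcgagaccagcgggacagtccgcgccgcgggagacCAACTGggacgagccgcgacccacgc
The ANXA2 stretch holds 1 AP-1 motif, 127 to 121 bases before the start, and 3 overlapping GC boxes between 78 and 63 bases before it, with no E-box. ANXA1 holds CAGATG 239 to 234 bases and another E-box 167 to 162 bases before its start, and ANXA5 holds 1 E-box 159 to 154 bases before its own. Among all 35116 windows of the same length, CAGATG occurs in 12.2% (1 of the 13 member windows), the longer CAGATGT, which contains it, in 2.83% (0 of 13), CANNTG in 61.8% (9 of 13), TGACTCA in 4.2% (1 of 13) and GGGCGG in 42.6% (8 of 13). TATAAA occurs in 10.7% (3 of 13). The parts of the 3 windows that lie inside annotated exons are not printed but hold further matches. These are TATAAA 31 to 26 bases before the start in ANXA1 and in ANXA2, and a GC box 111 to 106 bases before it in ANXA5. The members' windows had a median GC content of 66.0% and 20 CpG dinucleotides, against 58.0% and 11 in all windows. A match in letters is a description, not a bound site.

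ANXA1 encodes annexin A1, a calcium-dependent phospholipid-binding protein that acts on formyl peptide receptors to limit inflammation. Its level was 4715, 4500.4 and 8163 CPM in FL, 3491, 2244 and 3139 CPM in FL-mut, 3617, 4033 and 3775 CPM in SF-Nte, 3976, 2370.3 and 4203 in SF-mut, and 1923, 2046 and 3801 in EV. It went the other way from ANXA2, with the 3 FL libraries above all 12 others, which lay between 1923 and 4203 CPM. The mean was 5793 ± 2056 CPM in FL, 2958 ± 643 in FL-mut, 3808 ± 209.8 in SF-Nte, 3516 ± 999 in SF-mut and 2590.0 ± 1050.4 in EV (SD, n = 3 each). The log2 fold change was 1.16 ± 0.31 for FL against EV and -0.97 ± 0.31 for FL-mut against FL, and 0.19 ± 0.31 for FL-mut against EV (edgeR adjusted p = 0.877). FL replicate 3 and EV replicate 3 were each well above the rest of their group.

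ANXA5 encodes annexin A5, the protein used as a label for phosphatidylserine on dying cells. It had 160, 428 and 218 CPM in FL, 557, 1377 and 1000.5 CPM in FL-mut, 597, 341 and 655 CPM in SF-Nte, 668, 919 and 511 in SF-mut, and 785, 608 and 357 in EV. FL was low, though FL replicate 2 lay within the EV range, and FL-mut was above FL without overlap. Its log2 fold change was -1.12 ± 0.43 for FL against EV, 1.87 ± 0.44 for FL-mut against FL and 0.99 ± 0.43 for SF-Nte against FL. In comparisons without FL libraries it was 0.75 ± 0.42 for FL-mut against EV (edgeR adjusted p = 0.562) and -0.49 ± 0.42 for SF-mut against FL-mut (adjusted p = 0.803).

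ANXA4, an annexin of epithelial and secretory membranes, was at 72.8 to 170 CPM in FL, 35.3 to 97.3 in FL-mut, 166 to 198 in SF-Nte, 105 to 213 in SF-mut and 72.5 to 174 in EV. FL-mut was lowest, and SF-mut lay above FL-mut without overlap at a log2 fold change of 1.22 ± 0.45 (edgeR adjusted p = 0.366). ANXA7, known for its role in calcium-dependent granule fusion, was at 84.2 to 107 CPM in FL, 70.7 to 145 in FL-mut, 110 to 148 in SF-Nte, 115 to 232 in SF-mut and 109.5 to 146 in EV. FL lay just below EV without overlap, with a log2 fold change of -0.48 ± 0.34. Exons of ANXA7 overlap an antisense RNA over 105 bases, so its counts may hold reads of that RNA. ANXA6, which has a doubled set of annexin repeats, was at 7.74 to 21.1 CPM in FL, 12.1 to 36.1 in FL-mut, 5.65 to 30.8 in SF-Nte, 8.20 to 24.7 in SF-mut and 6.23 to 15.5 in EV. Counts of ANXA6 went down to 3 in a library, and no pair of groups was apart.

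Over the 10 genes together, the order of group means gives 40 pairs of neighbouring groups, and libraries did not overlap in 5 of them, where 4.7% of such pairs over all tested genes did not. Those were FL-mut over FL and EV over FL-mut for ANXA2, FL-mut over FL for LGALS1, SF-Nte over FL for LGALS3BP (1.64-fold) and FL over SF-Nte for ANXA1 (1.52-fold). As 4 of these 5 contain FL libraries, nothing is read from the count.

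In FL against EV, LGALS1 and ANXA2 were called lower, 2 of 10 genes, where 0.31% of all tested genes were called in either direction and 0.163% lower. By overlap, 3 genes were higher and 3 lower in FL than in EV with none shared, where 16.9% of all tested genes were apart in either direction. LGALS3, LGALS8 and ANXA1 were the higher ones and LGALS1, ANXA2 and ANXA7 the lower ones. The choice of genes used this comparison, so nothing is read from these counts. The median log2 fold change of the 10 genes was -0.18, against -0.007 over all genes tested.

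**Figure D2:**
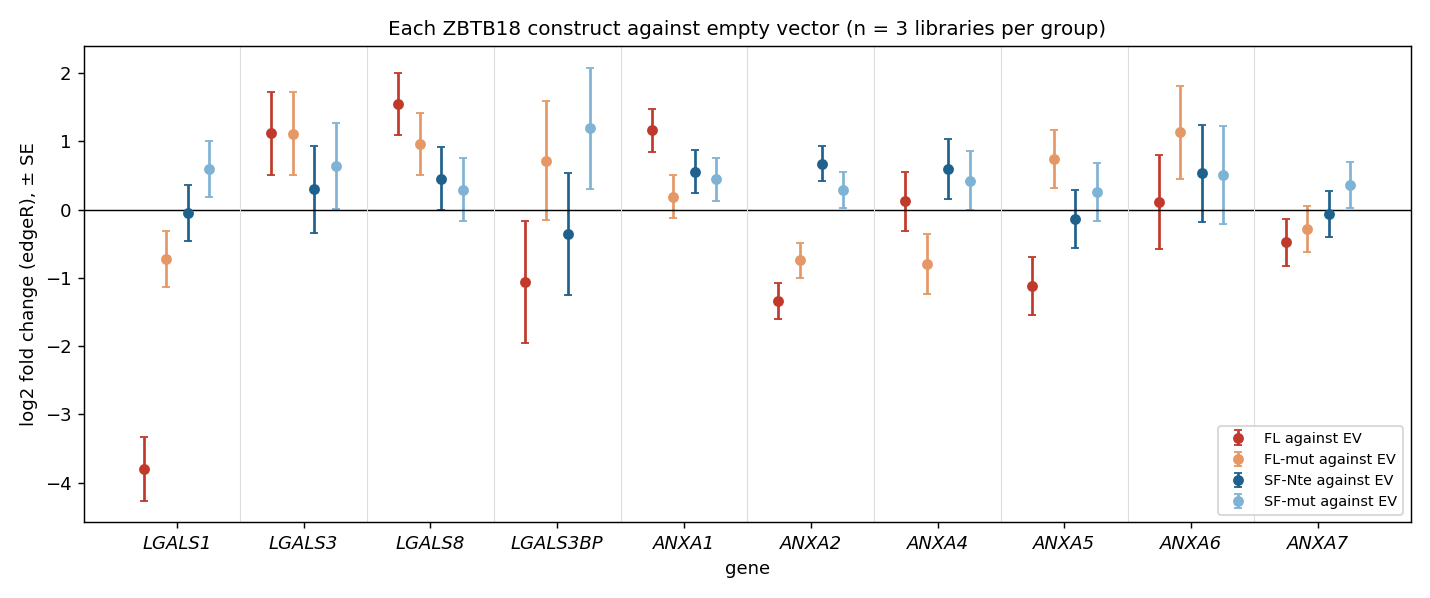
Log2 fold change of each gene in FL, FL-mut, SF-Nte and SF-mut against EV (edgeR, points with SE bars, n = 3 libraries per group, all against the same EV libraries). FL is at -3.80 for LGALS1 and -1.34 for ANXA2, and the SF-mut points are all above 0, between 0.26 and 1.19.

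The other constructs were set against the same EV libraries, which all of these comparisons share. In FL-mut against EV, 0 of 10 genes passed (edgeR, adjusted p from 0.326 to 0.877), and 2 had an unadjusted p under 0.05 (LGALS8 upward, ANXA2 downward). The background was 0.192% of tested genes called, and 10.5% at an unadjusted p under 0.05. By overlap, LGALS8 was higher and ANXA2 lower, where 17.4% of tested genes were apart. In SF-Nte against EV, 0 of 10 passed (adjusted p from 0.605 to 0.992, 1 with an unadjusted p under 0.05, namely ANXA2; background 0.0443%, or 7.23% unadjusted), and no gene was apart, where 17.3% of tested genes were. In SF-mut against EV, 0 of 10 passed (adjusted p from 0.991 to 0.997, 0 with an unadjusted p under 0.05; background 0.0591%, or 5.36% unadjusted), and no gene was apart, where 10.6% of tested genes were. All 10 log2 fold changes of SF-mut were above 0, with a median of 0.43 against -0.02 over all genes tested, but the 95% interval of each one contained 0. Several of these signs rested on 1 library. Without SF-mut replicate 2, LGALS3BP was at -0.29 and LGALS3 at -0.006. Without SF-mut replicate 1, LGALS8 was at -0.10 and ANXA7 at -0.05. ANXA2 was at -0.02 without SF-mut replicate 3 and ANXA5 at -0.09 without EV replicate 3. LGALS1, ANXA1, ANXA4 and ANXA6 stayed above 0 whichever library was left out. DESeq2 also called 0 of the 10 in these comparisons with EV.

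The mutant was set against the unmutated construct in each form. These groups also differed in mean ZBTB18 level, at 3521.5 CPM in FL-mut and 1442 in FL, and at 1793 in SF-mut and 301 in SF-Nte. Libraries overlapped between FL-mut and FL but not between SF-mut and SF-Nte. The mutation and the level of the construct cannot be told apart in these comparisons. In FL-mut against FL, LGALS1 was called higher, 1 of 10 genes, where 0.0887% of tested genes were called in either direction and 0.0591% higher. LGALS1, ANXA2 and ANXA5 were higher without overlap and ANXA1 lower, where 18.4% of tested genes were apart; these libraries include FL, so the counts are a description. In SF-mut against SF-Nte, 0 of 10 passed (edgeR, adjusted p from 0.674 to 0.994, 0 with an unadjusted p under 0.05, where 8.33% of tested genes had one), as did 0 genes of all tested (0%) with edgeR and 4 with DESeq2, which were none of the 10. LGALS1 alone was apart, and higher in SF-mut, where 12.4% of tested genes were apart in either direction and 5.75% higher. Whether the mutation acts differently in the long and the short form was not tested for these genes.

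**Figure D3:**
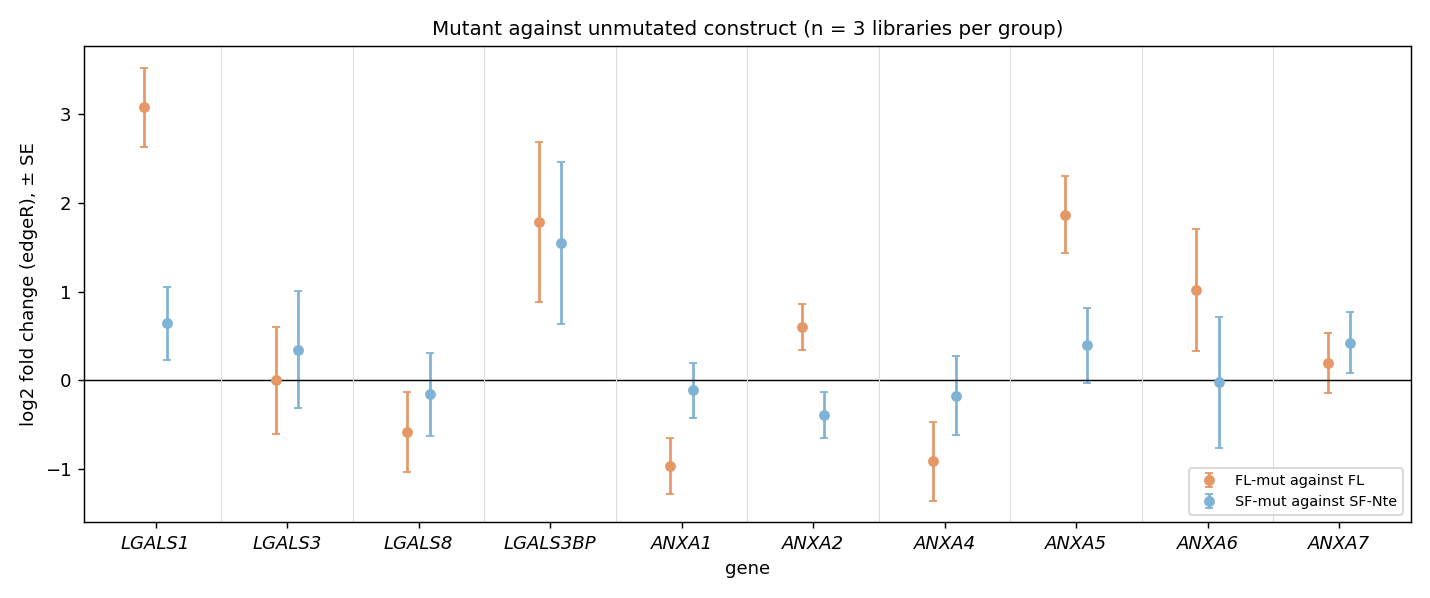
Log2 fold change of each gene in FL-mut against FL and in SF-mut against SF-Nte (edgeR, points with SE bars, n = 3 libraries per group). LGALS1 is at 3.08 and ANXA5 at 1.87 in FL-mut against FL, where SF-mut against SF-Nte is at 0.64 and 0.40, and the LGALS3BP bars are wide in both.

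The forms were compared without and with the mutation. Their ZBTB18 levels differed here too: SF-Nte lay below FL without overlap (means 301 and 1442 CPM), while SF-mut and FL-mut overlapped (1793 and 3521.5 CPM). The part of this level in the differences below was not tested. In SF-Nte against FL, LGALS1 and ANXA2 were called higher, 2 of 10 genes, where 1.06% of tested genes were called in either direction and 0.488% higher. LGALS1, ANXA2, LGALS3BP and ANXA7 were higher without overlap and ANXA1 and LGALS8 lower, where 24.4% of tested genes were apart. This comparison includes the FL libraries known when the genes were chosen, so its counts are a description and nothing is read from them. In SF-mut against FL-mut, 0 of 10 passed (edgeR, adjusted p from 0.177 to 0.932; background 0.163%), and 3 had an unadjusted p under 0.05, where 9.66% of tested genes had one. LGALS1, ANXA2 and ANXA4 were those 3 and were also higher without overlap, where 13.5% of tested genes were apart in either direction and 5.51% higher.

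Of 16 listed partners of annexins, among them S100 proteins, calpain and phospholipid scramblase, 12 were tested. This list and those below were chosen with earlier results of these data known, so the calls counted in them are a description. S100A6, an S100 protein that binds several annexins, had 1931, 1208 and 1109 CPM in FL, 5698, 5984 and 4106 CPM in FL-mut, 9239.6, 7727 and 8726 CPM in SF-Nte, 7781, 8008 and 8843 in SF-mut, and 12727, 13753 and 13131 in EV. S100A4, which is known for its part in cell motility, had 13.2, 7.46 and 36.8 CPM in FL, 53.5, 53.2 and 36.9 CPM in FL-mut, 559, 534 and 393 CPM in SF-Nte, 310.5, 450.0 and 330.1 in SF-mut, and 238, 354 and 671 in EV. Both were lowest in FL, next lowest in FL-mut and higher in the short forms, and S100A6 was highest in EV. In FL-mut against EV both fell, 2 of the 12 partners, where 0.192% of all tested genes were called, S100A4 by a log2 fold change of -3.14 ± 0.49 and S100A6 by -1.33 ± 0.22 (edgeR adjusted p = 0.0208 each). The S100A4 call held in 3 of 6 fits that each left out a library (log2 fold change -3.43 to -2.68) and was lost without EV replicate 3 or FL-mut replicate 1 or 3. The S100A6 call held in 2 of 6 (-1.46 to -1.23), those without EV replicate 1 or FL-mut replicate 2. In SF-mut against FL-mut, S100A4 alone rose, 1 of 12, where 0.163% of all tested genes were called, by 2.92 ± 0.49 (edgeR adjusted p = 0.0271). It held in 2 of 6 such fits, those without FL-mut replicate 2 or SF-mut replicate 1. In FL against EV the same 2 partners were called lower (0.31% of all tested genes called), in FL-mut against FL only S100A6 was called higher (0.0887%), in SF-Nte against FL both were called higher (1.06%), and in the other 3 comparisons 0 of 12 passed.

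S100A10, the partner of annexin A2 in its plasma membrane complex, did not pass in any comparison. It had 34.7, 42.3 and 21.3 CPM in FL, 70.7, 575 and 110 CPM in FL-mut, 23.1, 32.0 and 54.8 CPM in SF-Nte, 85.0, 666 and 53.3 in SF-mut, and 115, 26.2 and 46.3 in EV. Its high values were in replicate 2 of FL-mut and of SF-mut, the libraries in which LGALS3BP was high, and not where ANXA2 was high. S100A11, which binds annexin A1 and was picked after its values were seen, averaged 1210.2 CPM in FL, 1525 in FL-mut, 1385 in SF-Nte, 1666 in SF-mut and 1388 in EV, with overlapping libraries between each pair of these groups that was compared.

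**Figure D4:**
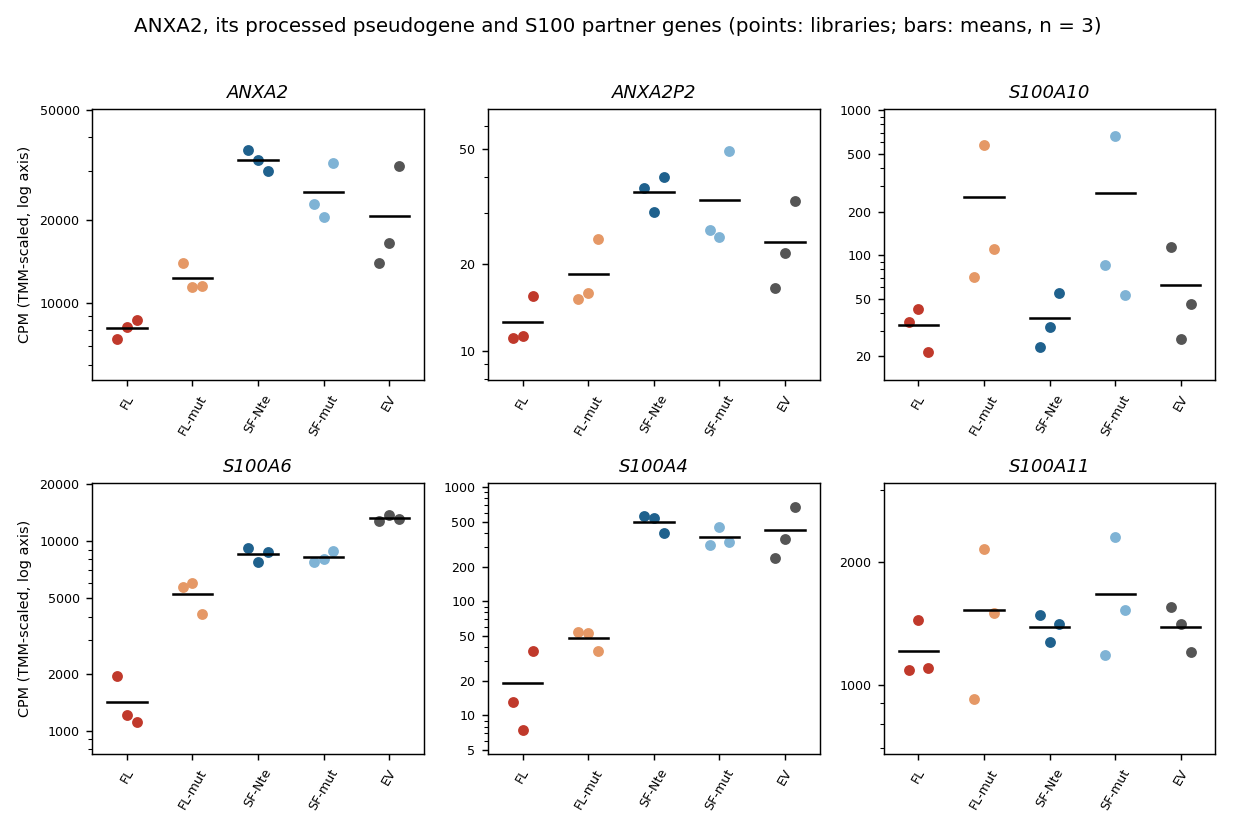
Level of ANXA2, its processed pseudogene ANXA2P2 and 4 S100 genes by library, in TMM-scaled CPM on log axes with a scale of their own; points are the 3 libraries of each group, replicates 1 to 3 from left to right, and black bars are group means. S100A6 and S100A4 are lowest in FL as ANXA2 is, while S100A10 reaches 575 and 666 CPM in 1 library each of FL-mut and SF-mut.

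Other galectins and annexins were scarce in these cells: of 19 listed, 12 were in the table and only ANXA11 had enough counts to be tested, at 18.1 CPM in FL and 28.7 in EV (log2 fold change -0.66 ± 0.56). Of 12 membrane repair genes tested, 0 passed in any of the 8 comparisons. The 2 of lowest p in FL against EV were MYOF, the membrane fusion protein myoferlin, at 3.78 ± 1.07 CPM in FL and 33.6 ± 9.07 in EV (SD, n = 3 each; log2 fold change -3.13 ± 0.77), and the ESCRT subunit CHMP2A, at 137 CPM in FL and 187 CPM in EV. The FL level of MYOF rested on 5, 4 and 3 counts in replicates 1 to 3, so the size of its fold change is uncertain. Of 14 glycoprotein ligands of galectins tested, 0 passed in any comparison. THY1, a surface glycoprotein, was at 12.5 CPM in FL and 43.3 in EV, and FN1, which encodes fibronectin, was at 77.2 CPM in FL and 14.5 in EV. Of 7 enzymes that branch or cap the glycans read by galectins, 0 passed, with ST3GAL1, a sialyltransferase, at 30.1 CPM in FL and 11.02 in EV and B4GALT1, a galactosyltransferase, at 33.9 CPM in FL and 51.3 in EV. Both differences rested on 1 library: FL against EV had a log2 fold change of 1.42 for ST3GAL1 but 0.40 without FL replicate 2, and of -0.59 for B4GALT1 but 0.09 without EV replicate 3.

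Of 7 tested genes that act with galectins on damaged endosomes, SQSTM1, which encodes the autophagy receptor p62, was lower in both short forms. It had 166, 167 and 117 CPM in SF-Nte, 258, 200.3 and 170.2 in SF-mut, and 1457, 5102 and 822 in EV. Neither short form overlapped EV, although the EV libraries themselves differed widely. FL-mut also had a lower mean, 718 CPM against 2460 in EV, with overlapping libraries. Its log2 fold change against EV was -1.78, or -0.72 without EV replicate 2, and did not pass. The log2 fold change was -4.03 ± 0.59 for SF-Nte against EV (edgeR adjusted p = 0.0295) and -3.55 ± 0.58 for SF-mut against EV (adjusted p = 0.0245), 1 of 7 genes in each, where 0.0443% and 0.0591% of all tested genes were called. Each call held without any 1 EV library, with log2 fold changes down in size to -2.94 for SF-Nte and -2.52 for SF-mut without EV replicate 2, and was lost without any 1 library of the short form, with 1 library fewer in that group. SQSTM1 was also called lower in SF-Nte than in FL, where it averaged 150.1 CPM in SF-Nte and 1837 in FL (1.06% of all tested genes called). That call was lost without SF-Nte replicate 1 (-3.65) or SF-Nte replicate 3 (-3.47). The autophagy receptors TAX1BP1 and OPTN were at 644 and 87.2 CPM in FL and at 248 and 23.6 CPM in EV, and neither passed in any comparison.

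The genes whose log2 level followed that of LGALS1 most closely over the 15 libraries were HMGN3, a nucleosome-binding protein (Pearson r = 0.92), CSRP1 (0.92), S100A6 (0.91), PMP22 (0.91) and SPP1, which encodes osteopontin (0.90), out of 6757 tested genes outside the member list. HMGN3 averaged 48.5 CPM in FL, 235 in FL-mut, 530.5 in SF-Nte, 433 in SF-mut and 438 in EV, the low FL and intermediate FL-mut levels of LGALS1. Within groups the likeness was uneven: the correlation of deviations from group means was -0.05 for HMGN3 and 0.65 for PMP22. For ANXA2 the closest were MORF4L1, a chromatin protein (0.95), SH3BGRL (0.93), RBMS3, an RNA-binding protein (0.93), MDP1 (0.93) and CBWD6 (0.92). MORF4L1 averaged 350 CPM in FL, 501 in FL-mut, 898 in SF-Nte, 700.1 in SF-mut and 625 in EV, and its correlation within groups was 0.83. These values describe libraries that share groups and scaling, and they carry no test.

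Among the 10 genes themselves, LGALS1 and LGALS8 ran against each other over the 15 libraries (Pearson r of log2 levels -0.82) and also within groups (-0.75). In replicate 2 of FL-mut and of SF-mut, LGALS1 was at the highest and LGALS8 at the lowest level of the group. The FL libraries also had opposite orders for these genes. How far the within-group value rests on single libraries was not tested. LGALS1 and ANXA2 ran together over the libraries (0.76) but not within groups (-0.20). ANXA1 and ANXA2 showed the reverse, with -0.12 over the libraries and 0.76 within groups, where EV replicate 3 was the highest EV library of both. ANXA5 and ANXA6 ran together in both views, at 0.73 over the libraries and 0.83 within groups.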

How the data were processed

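The deposited table holds raw counts, as whole numbers, for each gene symbol in 15 libraries. The submitters' processing notes name GRCh38; aligner, counting tool and use of strand are not given in the sources. RNA was made into cDNA with PCR barcoding kits per the labels' protocols, with no molecular identifiers, so amplification can alter a gene's share and counting error is a lower limit. Groups and replicate numbers came from the sample titles. Replicates of a group differed beyond sampling noise (chi-square per gene 4.23 to 39.0 over 15 pairs).

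Counts were filtered with filterByExpr (minimum count 10, minimum total 15), which kept 6767 of 18485 genes, scaled by TMM and tested with edgeR 4.0.16 in R 4.3.3 (robust quasi-likelihood fit, 1 coefficient per group, all 15 libraries, 10 residual degrees of freedom, Benjamini-Hochberg over all genes tested at 0.05). A standard error is the size of the log2 fold change over the square root of F. Groups are called apart when no library of one lies within the range of the other. The procedure was tested on simulated data. Alternatives were DESeq2 1.42.0, its size factors, no filter, the 6 libraries compared alone, a replicate block and leaving out each library.

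Same-number libraries of FL and EV deviated together (correlations 0.346, 0.14 and 0.413 over 3634 genes, all above the limit of 0.1). The labels do not say what a replicate number marks. The reported fit used no pairing, and replicate number entered only as the replicate block among the alternatives. No other comparison was above the limit in every replicate. SF-mut against FL-mut had 0.478 and 0.585 in replicates 1 and 2 but 0.074 in replicate 3. Members and gene lists were chosen with earlier results of these data known. Named were all 10 members, ZBTB18, of each list up to 3 genes past the threshold or otherwise the 2 of lowest p, and the 5 genes most correlated with LGALS1 and with ANXA2 (log2 CPM, prior count 2). Positions are from GENCODE v29, which matched 17989 symbols.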

Additional observations from a re-analysis of the deposited data

How the results depend on the processing

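Leaving out 1 library at a time, 2 of the 10 genes called in FL against EV became 1 to 2, with ANXA2 lost in all fits but the one without EV replicate 1. In FL-mut against FL, 1 call became 0 to 1, lost without FL replicate 2 or 3. The genes were chosen with these comparisons known, so their counts here are a description. In FL against EV, DESeq2 called 4 (adding LGALS8 and ANXA1, both higher), no filter on low counts called 4 (adding ANXA1 higher and ANXA5 lower) and the 6 libraries alone called 1 (LGALS1). In FL-mut against EV, 0 became 1 without the filter (ANXA2 lower). In FL-mut against FL, 1 became 2 with DESeq2 (adding ANXA5), 4 without the filter (adding ANXA1, ANXA5 and LGALS3BP) and 0 with the 6 libraries alone. In SF-mut against FL-mut, 0 became 1 with DESeq2 (ANXA2) and 2 without the filter (ANXA2 and LGALS1). The cause was not tested. The replicate block and DESeq2's size factors changed none of these counts. Of 878 log2 fold changes of the 10 genes under alternatives, 837 kept their sign, 41 changed it and 0 of the called ones reversed. Over all genes tested, the calls in the analysis as reported, with DESeq2, without the filter and with the 6 libraries alone were 21, 128, 202 and 13 in FL against EV, 13, 145, 219 and 3 in FL-mut against EV, 3, 24, 121 and 1 in SF-Nte against EV, and 4, 25, 81 and 2 in SF-mut against EV. They were 6, 112, 348 and 0 in FL-mut against FL, 72, 296, 301 and 130 in SF-Nte against FL, 0, 4, 193 and 0 in SF-mut against SF-Nte, and 11, 99, 134 and 0 in SF-mut against FL-mut. With DESeq2's size factors the higher and lower calls were 6 and 4 in FL-mut against EV (reported 6 and 7) and 0 and 1 in SF-Nte against EV (reported 1 and 2). The replicate block gave 25 calls in FL against EV, 8 higher and 17 lower (reported 10 and 11), and 5 in SF-Nte against EV; it changed no call of a named gene. With the 6 libraries alone the calls of S100A4 in both comparisons, of S100A6 in FL-mut against EV and of SQSTM1 against EV were lost. Short-form libraries were the shallowest, and genes under about 20 CPM, such as ANXA6, rested on few counts.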

Other observations

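BSG, which encodes basigin, a surface glycoprotein bound by galectin-3, was picked after its values were seen. It had 120, 3352 and 809 CPM in FL-mut, 58.8, 2269 and 148 CPM in SF-mut, and 276, 106 and 139.8 CPM in EV. As with LGALS3BP and S100A10, its highest library in FL-mut and in SF-mut was replicate 2. The libraries of FL and SF-Nte held between 59.8 and 233 CPM of BSG. In these replicate 2 libraries LGALS8 was at the lowest level of its group, 53.2 CPM in FL-mut and 18.5 CPM in SF-mut.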
